A study of Mus musculus with 6 samples.

Results

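Transcripts of cytosolic and mitochondrial chaperones were followed in mouse erythroblasts cultured with the Plek2 inhibitor NUP-17d. The set held 43 genes of the 17060 listed in the deposited tables, and they were taken by name from a list drawn up with earlier results of these data known. They were 2 heat shock transcription factors, 9 genes of the HSP70 and HSP110 families, 2 cytosolic HSP90 genes, 7 HSP40 genes, 5 mitochondrial chaperone genes, 8 co-chaperones, 2 genes with a small heat shock protein symbol and 8 subunits of the chaperonin CCT. Hspa13, counted here with the HSP70 genes, encodes a protein associated with endoplasmic reticulum membranes.

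Lineage-negative BM cells, the cells left after marrow cells with markers of mature blood cells are removed, were taken from WT mice and grown in EPO-containing medium, where such cells turn into erythroblasts. They received the vehicle DMSO or NUP-17d, a small molecule that binds the DEP domain of Plek2, for 48 hours. RNA was sequenced from 3 cultures of each condition. Both conditions shared the genotype, the EPO-containing medium and the time, and the NUP-17d dose of 10 μM is taken from the study's text because the labels give none. The sources used here do not say whether the cultures came from separate mice, so the p-values measure only the spread between these cultures.

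Chaperones bind proteins that are not fully folded and help them to fold, to assemble or to reach the proteasome. HSP70 proteins bind and release short stretches of their clients in an ATP cycle, HSP40 proteins (J-domain proteins) bring clients and start ATP hydrolysis, and nucleotide exchange factors such as the HSP110 and BAG proteins reset the cycle. HSP90 acts later, on kinases, steroid receptors and other clients delivered by co-chaperones. CCT is a ring-shaped chaperonin that folds actin and tubulin, and Hsp60 with its lid Hsp10 does comparable work in the mitochondrial matrix. The factor HSF1 raises the transcription of many of these genes after heat or protein damage by binding repeats of the letters GAA and TTC. Erythroblasts depend on chaperones for hemoglobin assembly, and HSP70 is known to protect the erythroid factor GATA1 from cleavage by caspase-3. Hsp72, the inducible HSP70 encoded by the gene pair Hspa1a and Hspa1b, was among the proteins the study examined.

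The letters that HSF1 is known to bind were searched in the 250 bases before each annotated start, in RefSeq promoters on GRCm38.p6. Windows were at hand for 36 of the 43 genes, and Cct4, Hsf1, Hsp90aa1, Hsp90ab1, Hspa13, Hspa8 and Hspa9 had none. The search covered both strands. Runs of 3 alternating units, GAANNTTCNNGAA or TTCNNGAANNTTC, each the reverse complement of the other, occurred in 139 of 27025 genes (0.514%) and in 3 of the 36 chaperone genes, Hspd1, Hspe1 and Dnajb6. A pair of units, GAANNTTC or TTCNNGAA, which every longer run also holds, was found in 3932 genes (14.5%) and in 14 of the 36 chaperone genes. A match is only a description of the letters and was not tested as a binding site.

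The sequences below are 30 bases long, with the matching units and their spacers in capitals. The shared site of Hspd1 and Hspe1 is shown first, because these neighbouring genes for Hsp60 and Hsp10 are read in opposite directions and the same bases lie before both starts. On the strand of Hspd1 they are at chr1:55088053-55088082, 127 to 144 bases before the start, and 72 to 89 bases before the start of Hspe1, and 2 overlapping matches make up the capitals. The Dnajb6 site at chr5:29735844-29735873, plus strand, lies 34 to 46 bases before 1 annotated start and 115 to 127 bases before another. The other sites shown, each with a pair of units, were chosen after the values were seen, for the HSP40 genes Dnajb4 (chr3:152193846-152193875, minus strand) and Dnaja4 (chr9:54699496-54699525, plus strand) and for Hspa1a (chr17:34972242-34972271, minus strand) and Hspa1b (chr17:34959324-34959353, minus strand).
Hspd1: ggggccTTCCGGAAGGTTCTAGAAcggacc
Hspe1: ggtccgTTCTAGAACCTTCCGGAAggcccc
Dnajb6: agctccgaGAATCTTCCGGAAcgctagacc
Dnajb4: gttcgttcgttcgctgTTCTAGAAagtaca
Dnaja4: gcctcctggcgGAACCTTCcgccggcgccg
Hspa1a: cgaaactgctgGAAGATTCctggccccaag
Hspa1b: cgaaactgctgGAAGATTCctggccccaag
The Hspa1a and Hspa1b stretches are the same in all 30 bases and lie at the same distance from their starts. Dnajb2, Bag3, Cct7 and Dnajb1 had a window without these letters.

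The libraries held 20278433 to 20419018 expected counts in DMSO and 20076409 to 20170197 in NUP-17d, an expected count being the authors' estimate of the reads from a gene, which need not be whole. The 10 hemoglobin genes took 18.3% to 20.3% of the counts in DMSO and 11.8% to 13.1% in NUP-17d. How a library is scaled therefore sets the direction of small changes. Values below are CPM, expected counts brought to a common library size, after scaling by TMM, which balances libraries on the bulk of their genes. Differences were tested by the quasi-likelihood method of edgeR, and p-values were adjusted by Benjamini-Hochberg over 12306 genes. A gene was called at an adjusted p under 0.05. With TMM the median log2 fold change of all genes was 0.014 and 46.5% of calls were higher in NUP-17d. With library totals alone the median was 0.28 and 92.8% of calls were higher, and with totals that leave out hemoglobin genes these were 0.16 and 84.4%.

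All 13 erythroid markers checked were lower in NUP-17d with TMM (median log2 fold change -0.64), and their summed level went from 27200 to 29350 CPM in DMSO to between 16660 and 17670 CPM. Of these, Klf1 and Gata1, both erythroid transcription factors, had values of 0.028 and -0.067 with library totals. None of the 47 marker genes was at 0 in every culture. Summed levels were 3938 to 4106 CPM in DMSO and 4018 to 4298 in NUP-17d for neutrophil markers (2 of 9 called higher, 1 lower), and 2898 to 3136 and 3252 to 3556 for macrophage markers (3 of 7 higher, 2 lower). They were 332 to 361 and 375 to 396 for megakaryocyte markers (3 of 6 higher, 1 lower), 223 to 235 and 217 to 226 for mast cell and basophil markers (1 of 6 tested higher, 2 lower), and 223 to 228 and 232 to 246 for progenitor markers (2 of 5 higher, 0 lower). The part of these shifts in the chaperone results was not tested. In RNA from whole cultures, fewer cells of a type and less RNA per cell cannot be told apart.

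Chaperone transcripts were mostly lower in NUP-17d cultures with TMM scaling, and mostly by small amounts. The HSP40 genes Dnajb4, Dnajb2 and Dnaja4 were lower by more (log2 fold change -0.93, -0.59 and -0.55). Bag3 came next at -0.41, followed by Cct7 at -0.32. Of the 43 genes, 42 had enough counts to be tested, 26 of them were called lower (18.9% of all tested genes were), and 0 were called higher (16.4% of all tested genes were). The remaining 16 were not called. Of these, 3 had an unadjusted p under 0.05, all with lower values, and 0 had a higher value at that level by edgeR or DESeq2. DESeq2 called 22 lower (15.3% of all tested genes) and 0 higher (1276 of all 12306 tested genes were). The median log2 fold change was -0.14 over the 42 genes and 0.014 over all genes. In 32 of the 42 every NUP-17d culture was below every DMSO culture (23.2% of all tested genes), in 9 the groups overlapped, and in 1, Hspb11, every NUP-17d culture was above (22.8% of all tested genes).

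The directions of the small changes depend on the scaling. With library totals alone 25 of the 42 were called higher and 4 lower, where 68.7% of all genes were called higher and 5.34% lower, and with totals without hemoglobin genes 10 were called higher and 10 lower, against 46.5% and 8.58% of all genes. The median of the 42 lay -0.155 from the median of all genes with TMM, and 37 of the 42 were below that median. Another scaling shifts all genes by nearly the same amount, so it leaves these distances as they are and is no test of them. Dnajb4, Dnajb2, Dnaja4 and Bag3 were the 4 genes that were called lower under every scaling, with DESeq2, and with any 1 culture left out.

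**Figure D1:**
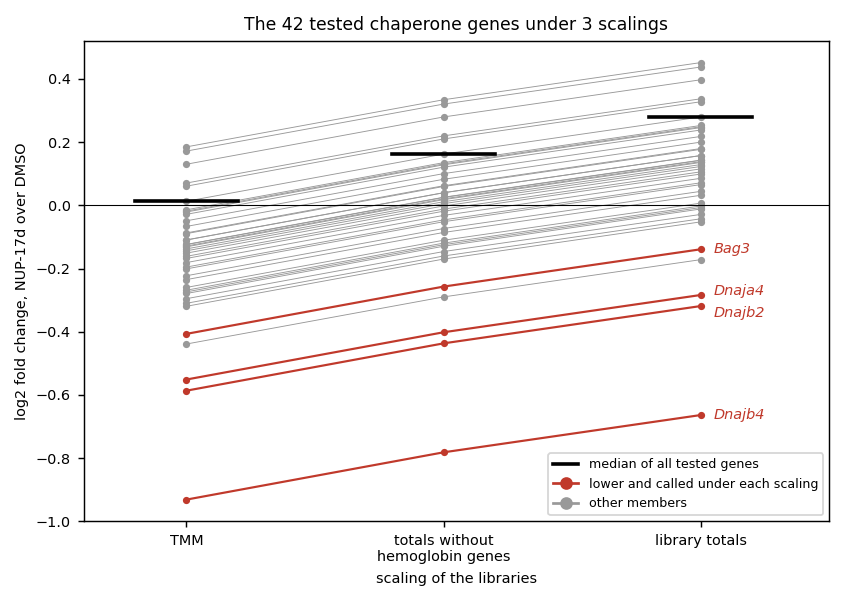
Log2 fold change (NUP-17d over DMSO, y axis) of each of the 42 tested chaperone genes (1 line a gene) under 3 scalings of the libraries (x axis), with the median of all tested genes as a black bar. All lines climb together from TMM to library totals as the bar goes from 0.014 to 0.28, and the red lines of Dnajb4, Dnajb2, Dnaja4 and Bag3 are below 0 throughout.

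The share of all counts in the 43 genes was 0.834% ± 0.023 in DMSO and 0.880% ± 0.0031 in NUP-17d (SD, n = 3, exact permutation test, 2-sided, p = 0.1, the smallest that 3 against 3 allows). Taken over the counts outside hemoglobin genes the order turned, with 1.03% ± 0.017 in DMSO and 1.003% ± 0.0048 in NUP-17d (exact permutation p = 0.1). Hspa8 alone held 21.9% of the chaperone counts, Hsp90ab1 16.1% and Hsp90aa1 7.99%.

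Levels between genes were compared as FPKM, the authors' counts per transcript length and library total. In DMSO Hspa8 had the highest mean, 839.8 FPKM, followed by Hsp90ab1 with 508, Hsp90aa1 with 239.5 and Dnajb2 with 156. The 8 CCT genes, whose products take equal places in each ring of the chaperonin, were within 1.58 times of each other, from 64.4 FPKM for Cct3 to 101 for Tcp1. Hspa1a and Hspa1b were at 0.993 and 1.33 FPKM in DMSO and at 0.880 and 1.34 in NUP-17d. The inducible HSP70 pair was thus far below the constitutive Hspa8, by a factor of 845 for Hspa1a in DMSO.

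**Figure D2:**
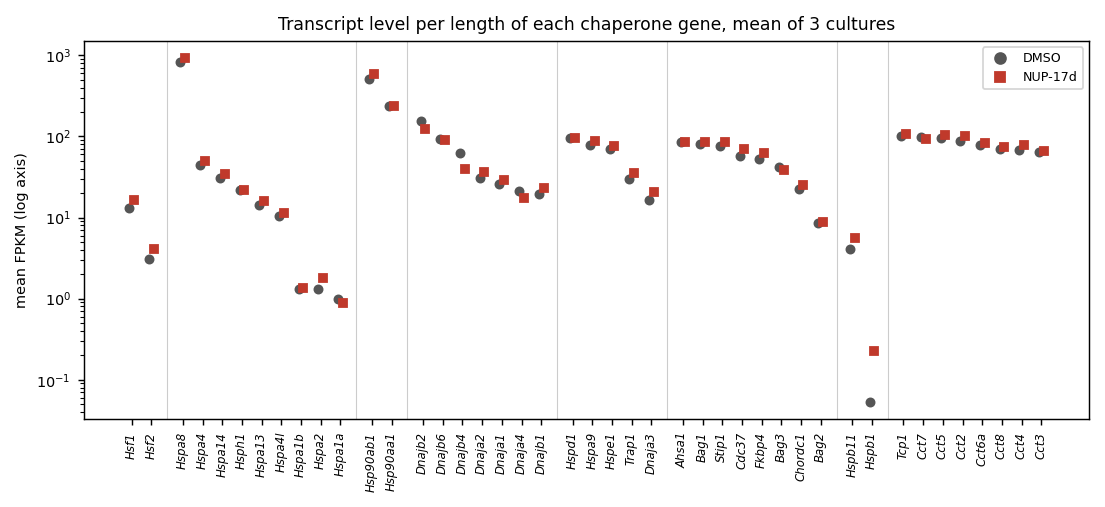
Mean FPKM (log axis) of the 43 genes in the 3 DMSO cultures (circles) and the 3 NUP-17d cultures (squares), ordered by level within each family. Hspa8 and Hsp90ab1 are at the top, the CCT genes lie close together between 64.4 and 101 FPKM in DMSO, and Hspa1a, Hspa1b and Hspb1 are low, at 0.993, 1.33 and 0.053 FPKM in DMSO.

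Neither heat shock factor gene was called with TMM. With library totals both were called higher, as were 68.7% of all tested genes. The median log2 fold change of all genes was 0.28 under that scaling. Hsf1, which encodes the main inducer of the heat shock response, was at 33.2, 34.7 and 33.4 CPM in the 3 DMSO cultures and at 35.0, 33.0 and 38.3 in the 3 NUP-17d cultures. The groups overlapped, with a log2 fold change of 0.071 ± 0.055 (SE, edgeR adjusted p = 0.34) with TMM and 0.34 (adjusted p = 1.76e-05) with library totals. For Hsf2 the values were 0.13 (adjusted p = 0.32) and 0.40 (adjusted p = 0.00083).

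Among the HSP70 and HSP110 genes 5 of 9 were called lower with TMM (18.9% of all tested genes). With library totals 0 were called lower and 5 higher (5.34% and 68.7% of all tested genes). The highest, Hspa8, which encodes the constitutive Hsc70, was at 1945, 1941 and 1976 CPM in DMSO and at 1792, 1767 and 1821 in NUP-17d. All NUP-17d cultures were lower by TMM, with a log2 fold change of -0.12 ± 0.035 (SE, edgeR adjusted p = 0.0065), and the direction turned to 0.14 (adjusted p = 9.34e-05) with library totals.

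The inducible pair was measured with few reads. Hspa1a was at 3.12, 3.10 and 3.03 CPM in DMSO and at 2.93, 2.26 and 1.59 in NUP-17d, which is 56.3 to 58.8 and 34.7 to 64.9 expected counts. All NUP-17d cultures were below all DMSO cultures in CPM, but the difference was not called (log2 fold change -0.44 ± 0.19 SE, edgeR adjusted p = 0.073). It was called without NUP-17d culture 1 (-0.67, adjusted p = 0.013), and without NUP-17d culture 3 it was -0.25 (adjusted p = 0.34). With library totals the value was -0.17 (edgeR adjusted p = 0.42). In FPKM the groups overlapped, from 0.98 to 1.02 in DMSO and from 0.61 to 1.14 in NUP-17d.

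Hspa1b was at 4.06, 5.12 and 3.28 CPM in DMSO and at 3.71, 3.74 and 2.92 in NUP-17d. Its groups overlapped, with a log2 fold change of -0.27 ± 0.16 (SE, edgeR adjusted p = 0.21), and of -0.0019 with library totals (adjusted p = 0.99). The counts of both genes were not whole in any of the 6 cultures, so part of their reads was shared with other genes. Sharing between these near-identical genes makes each value alone uncertain. Their counts added together were not whole either, so the sum also holds reads shared with further genes. Summed, a choice made after the values were seen, they gave 7.18, 8.23 and 6.302 CPM in DMSO and 6.65, 5.998 and 4.51 in NUP-17d. The groups overlapped, and the log2 fold change was -0.34 ± 0.13 (SE, edgeR adjusted p = 0.048). The call of the sum was lost with DESeq2 (adjusted p = 0.12), with library totals (-0.072, adjusted p = 0.64), and without DMSO culture 1 (adjusted p = 0.086), DMSO culture 2 (-0.24, adjusted p = 0.25) or NUP-17d culture 3 (-0.20, adjusted p = 0.27).

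The other 4 called genes of this family were nucleotide exchange factors of the HSP110 branch and Hspa13. Hsph1 had a log2 fold change of -0.27 (edgeR adjusted p = 3.76e-06), Hspa4l -0.16, Hspa13 -0.13 and Hspa4 -0.11. With library totals these became -0.0069 for Hsph1 and 0.11, 0.14 and 0.16 for the others. Hspa4l was no longer called without DMSO culture 3 or NUP-17d culture 3 (adjusted p = 0.058 and 0.073), nor Hspa13 without DMSO culture 2 (adjusted p = 0.0505). Hspa2, known from the testis, and Hspa14, which works at the ribosome, were not called with TMM, at 0.17 and -0.087, and were called higher with library totals, at 0.44 and 0.18.

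The 2 cytosolic HSP90 genes differed in their values. Hsp90ab1, the constitutive form, was at 1383, 1411 and 1441 CPM in DMSO and at 1348, 1345 and 1351 in NUP-17d. The groups did not overlap, but the log2 fold change of -0.067 ± 0.034 (SE, edgeR adjusted p = 0.14) was not called with TMM, and with library totals it was 0.20 and called. Hsp90aa1, the form that heat induces, ranged from 743 to 766 CPM in DMSO and from 613 to 625 in NUP-17d, with a log2 fold change of -0.30 ± 0.034 (SE, edgeR adjusted p = 6.83e-08). With library totals its value was -0.029 and not called.

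The HSP40 genes showed the widest spread of changes. With TMM 5 of 7 were called lower (18.9% of all tested genes). With library totals 3 were called lower and 3 higher (5.34% and 68.7% of all tested genes). Dnajb4 had the largest change of the set and fell by 47.6%. It was at 345, 323 and 338 CPM in DMSO and at 176, 175 and 177 in NUP-17d. The groups lay far apart, with a log2 fold change of -0.93 ± 0.035 (SE, edgeR adjusted p = 4.87e-17), and with library totals it was -0.66 and still called. Its counts were not whole in any culture, so part of its reads was shared with other genes.

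Dnajb2, whose product carries ubiquitin-binding motifs, was the most abundant HSP40 transcript. It was at 397, 368 and 381 CPM in DMSO and at 255, 254 and 254 in NUP-17d, so it fell by 33.4% with no overlap (log2 fold change -0.59 ± 0.035 SE, edgeR adjusted p = 3.34e-13). Dnaja4, a J-domain protein of the same class as Dnaja1, was at 73.5, 66.1 and 70.4 CPM in DMSO and at 50.6, 44.2 and 48.5 in NUP-17d. Its groups did not overlap (log2 fold change -0.55 ± 0.050 SE, edgeR adjusted p = 1.06e-09). With library totals both genes were still called lower, at -0.32 for Dnajb2 and -0.28 for Dnaja4.

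Dnajb6, whose product holds back protein aggregates and whose window carries 3 alternating units, was at 218, 212 and 210.3 CPM in DMSO and at 168, 176 and 173 in NUP-17d. All NUP-17d cultures were lower with TMM (log2 fold change -0.31 ± 0.035 SE, edgeR adjusted p = 6.09e-08), and with library totals the value was -0.043 and not called. Dnaja1 was called lower with TMM (-0.14), not without NUP-17d culture 2 (adjusted p = 0.053), and was called higher with library totals (0.13). Dnajb1, the main heat-inducible HSP40, was not called with TMM (-0.014, edgeR adjusted p = 0.82) and was called higher with library totals (0.25). Dnaja2 was likewise at -0.021 and not called with TMM, and was called higher with library totals (0.25).

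**Figure D3:**
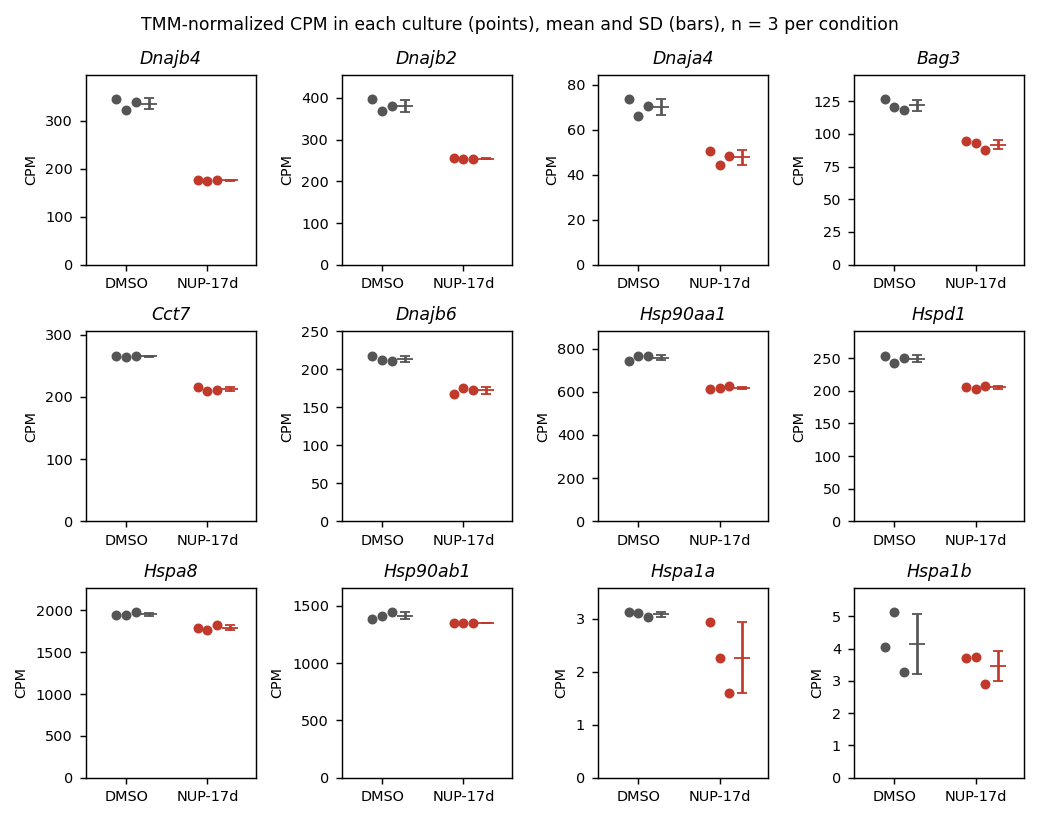
TMM-scaled CPM (y axes from 0, a scale of its own for each gene) of 12 chaperone genes in the DMSO and NUP-17d cultures, with 1 point a culture and the mean and SD beside them (n = 3). Dnajb4, Dnajb2, Dnaja4 and Bag3 show wide gaps between the conditions, Hspa8 and Hsp90ab1 narrow ones, and the points of Hspa1b overlap.

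Of the 5 mitochondrial genes 3 were called lower with TMM (18.9% of all tested genes). With library totals 0 were called lower and 4 higher (5.34% and 68.7% of all tested genes). Hspd1, which encodes Hsp60, was at 254, 243 and 250.4 CPM in DMSO and at 205, 204 and 207 in NUP-17d. The groups did not overlap (log2 fold change -0.28 ± 0.034 SE, edgeR adjusted p = 2.42e-07), and with library totals the value was -0.012. Hspe1, for its lid Hsp10, which shares the printed site, was at -0.15 (adjusted p = 0.016). The call of Hspe1 was lost without DMSO culture 3 (adjusted p = 0.14), NUP-17d culture 1 (adjusted p = 0.070) or NUP-17d culture 2 (adjusted p = 0.064), and with library totals the value was 0.12. Hspd1 and Hspe1 both had counts that were not whole in any culture, while their counts added together were whole in each. Reads were thus divided between these neighbouring genes, and their values are not independent of each other. Hspa9, the matrix HSP70 that pulls proteins through the import channel, was called lower with TMM (-0.13) and higher with library totals (0.14). Trap1, the mitochondrial HSP90, and Dnaja3, the matrix HSP40, were not called with TMM, at -0.028 and 0.061, and were called higher with library totals, at 0.24 and 0.33.

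Of the 8 co-chaperones 6 were called lower with TMM (18.9% of all tested genes). With library totals 1 was called lower and 5 higher (5.34% and 68.7% of all tested genes). The gene lower under both was Bag3, an HSP70 exchange factor that leads clients to autophagy. It was at 126, 121 and 119 CPM in DMSO and at 94.8, 93.0 and 87.9 in NUP-17d, so it fell by 24.6% with no overlap (log2 fold change -0.41 ± 0.040 SE, edgeR adjusted p = 4.50e-09, and -0.14 with library totals). Ahsa1, which stimulates the ATPase of HSP90 and had the highest mean FPKM of the co-chaperones over the 6 cultures (Bag1 was higher in NUP-17d), was at 119.5, 123 and 127 CPM in DMSO and at 98.8, 107 and 103.5 in NUP-17d. All NUP-17d cultures were lower with TMM (log2 fold change -0.26 ± 0.039 SE, edgeR adjusted p = 6.64e-06), and with library totals the value was 0.0070.

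The smaller changes among co-chaperones turned sign with library totals. Bag2, which inhibits the ubiquitin ligase CHIP, was at -0.24 with TMM and 0.032 with library totals, and Bag1, an HSP70 exchange factor, at -0.17 and 0.099. Stip1, which links HSP70 to HSP90, was at -0.12 and 0.14, and Chordc1, an HSP90 partner, at -0.11 and 0.16. The TMM call of Stip1 was lost without DMSO culture 3 (edgeR adjusted p = 0.054). That of Chordc1 was lost without any 1 of 5 cultures, all but DMSO culture 3 (edgeR adjusted p from 0.075 to 0.14). Cdc37, which brings kinases to HSP90, and Fkbp4, the steroid receptor immunophilin, were not called with TMM, at 0.013 and -0.018, and were called higher with library totals, at 0.28 and 0.25.

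Of the genes with a small heat shock protein symbol, Hspb1 was nearly silent, with 1, 0 and 2 counts in DMSO and 4, 3 and 5 in NUP-17d, and was not tested. Hspb11, whose product is better known as a part of intraflagellar transport, was at 2.87, 2.95 and 2.42 CPM in DMSO and at 2.98, 3.36 and 3.03 in NUP-17d. Every NUP-17d culture was above every DMSO culture, but the log2 fold change of 0.19 ± 0.16 (SE, edgeR adjusted p = 0.40) was not called with TMM. With library totals it was 0.45 and called.

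Of the 8 CCT genes 6 were called lower with TMM (18.9% of all tested genes). With library totals 0 were called lower and 4 higher (5.34% and 68.7% of all tested genes), the 4 being Cct2, Cct4, Cct5 and Cct8. Tcp1, the most abundant, was at 273, 279.7 and 286 CPM in DMSO and at 241, 243 and 246 in NUP-17d. The groups did not overlap (log2 fold change -0.20 ± 0.034 SE, edgeR adjusted p = 3.36e-05), and with library totals the value was 0.066. Counts of Tcp1 in 5 of the 6 cultures and of Cct8 in all 6 were not whole, so part of their reads was shared. Cct7 had the largest change of the ring, from 266, 265 and 265 CPM in DMSO to 217, 209 and 212 in NUP-17d (log2 fold change -0.32 ± 0.034 SE, edgeR adjusted p = 1.78e-08, and -0.052 with library totals, not called). With TMM the other called subunits were Cct3 at -0.22, Cct6a at -0.20, Cct8 at -0.18 and Cct5 at -0.14, and all 4 were above 0 with library totals. Cct2 (-0.090, edgeR adjusted p = 0.0504) and Cct4 (-0.049, adjusted p = 0.29) were not called with TMM, and Cct2 was called lower without NUP-17d culture 3 (-0.11, adjusted p = 0.023). In all 8 CCT genes each NUP-17d culture was below each DMSO culture in TMM-scaled CPM (23.2% of all tested genes), an order that holds for this scaling.

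The genes called with a log2 fold change of -0.3 or less were Dnajb4, Dnajb2, Dnaja4, Bag3, Cct7 and Dnajb6, which is 6 of the 42 against 7.76% of all tested genes. The plot of all log2 fold changes shows the families side by side.

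**Figure D4:**
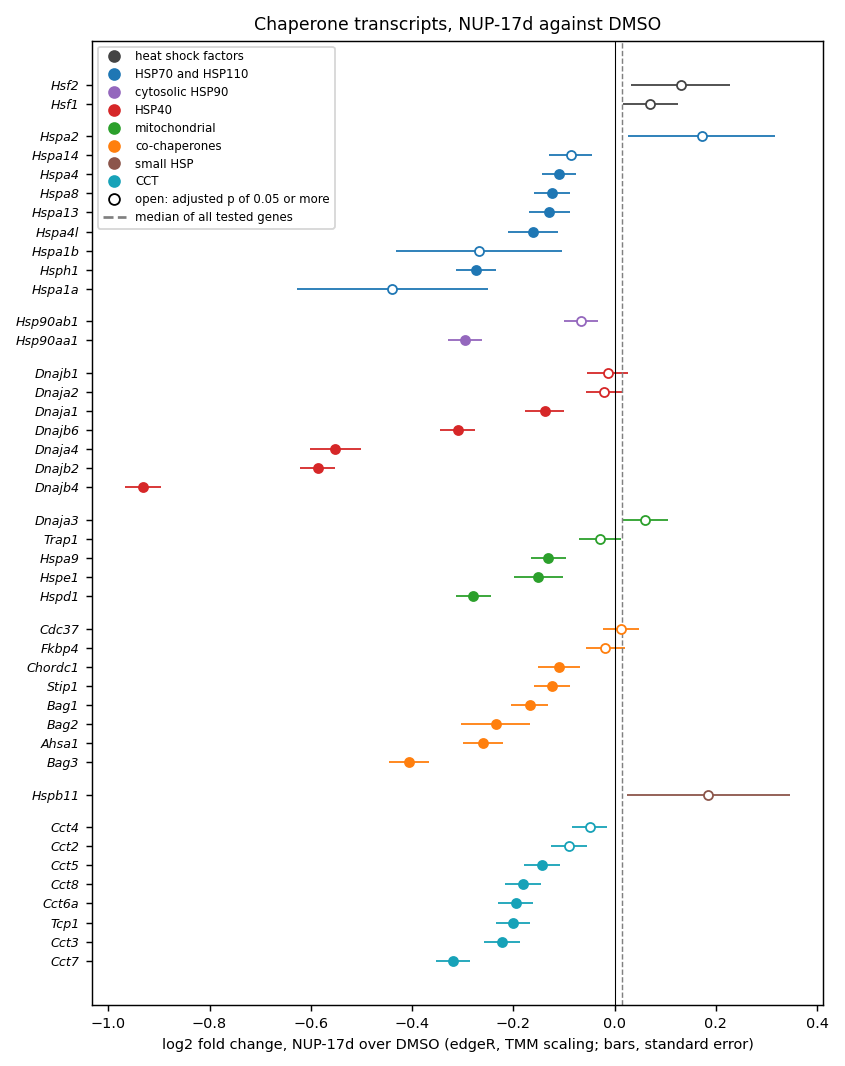
Log2 fold change (NUP-17d over DMSO, edgeR with TMM, x axis) of the 42 tested chaperone genes by family, with SE bars, filled where the adjusted p was under 0.05 and open otherwise, and the median of all tested genes as a dashed line at 0.014. Dnajb4, Dnajb2 and Dnaja4 stand farthest to the left at -0.93, -0.59 and -0.55, and all filled points lie left of 0 under this scaling, while with library totals 4 called genes do.

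Further lists of folding genes were read in the same fit, with TMM, each beside the 18.9% of genes called lower and 16.4% called higher in all. Of 24 other HSP70 and J-domain partners 4 were called higher and 2 lower (median log2 fold change -0.011). Their lowest p-values belonged to Dnajb12, a J-domain protein of the endoplasmic reticulum membrane (-0.29, and -0.023 with library totals), to St13, which stabilises HSP70 with its client (0.17), and to Dnajc13 of endosomes (0.14). Of 15 other HSP90 partners 6 were lower and 0 higher, with a median of -0.11. Ppid, an HSP90-bound prolyl isomerase (-0.25), Fkbp8, a mitochondrial membrane immunophilin (-0.20), and Ruvbl2, an ATPase of the R2TP complex (-0.19), had the lowest p-values, and with library totals all 3 were above 0.

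Of 12 other mitochondrial folding and protease genes 2 were lower and 0 higher with TMM, with a median of -0.016. They were Hscb, the J-domain protein of iron-sulfur cluster assembly (-0.40, and -0.13 with library totals), and Clpx, the unfoldase known to activate the heme enzyme Alas2 (-0.20, and 0.070 with library totals). Of 14 prefoldin and tubulin folding genes 4 were lower and 1 higher, with a median of -0.053. This count of 5 calls was 3 without DMSO culture 2 and 3 without NUP-17d culture 3. The prefoldin subunits Vbp1 and Pfdn6 were at -0.30 and -0.24 and Pfdn5 at 0.14, while with library totals they were at -0.028, 0.023 and 0.41.

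Of 7 other heat-inducible genes 6 were tested, and 3 of these were lower and 0 higher with TMM, with a median of -0.15. Dedd2, a death effector domain gene, was at -0.63 (edgeR adjusted p = 5.60e-12), Ubb, a polyubiquitin gene, at -0.52 (adjusted p = 3.44e-11), and Mrpl18, a mitochondrial ribosomal protein gene, at -0.19. With library totals Dedd2 and Ubb were still lower and called, at -0.37 and -0.26, and Mrpl18 was at 0.073.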

How the data were processed

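The authors deposited 1 table per culture with an expected count and an FPKM per gene, under Entrez identifiers and symbols. The expected count is unnormalized, and 27.8% to 28.5% of its values were not whole (tolerance 0.005). The authors' FPKM is that count scaled by transcript length and library total. A gene missing from a table was taken as 0. The submitters' processing notes name the build mm10, while the aligner, counter and use of strand are not given in the sources used here. For library making, the labels give oligo(dT) enrichment, random primers and DNBseq, whereas the study's methods name a stranded kit and another instrument.

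Expected counts were rounded and tested in R 4.3.3 with edgeR 4.0.16 (filterByExpr, TMM, glmQLFit, glmQLFTest, Benjamini-Hochberg over 12306 genes, threshold 0.05) on all 6 cultures. TMM factors were 0.887 to 0.930 in DMSO and 1.08 to 1.11 in NUP-17d, and the common biological coefficient of variation was 2.95%. No 2 cultures were alike within sampling noise (chi-square per degree of freedom 1.84 to 4.59 within a condition). Alternatives were DESeq2 1.42.0, relative log expression factors, library totals with and without hemoglobin genes, no low count filter, a threshold of 0.01, a replicate block and leaving out each culture. Counts were simulated with 200 genes changed by 0.5 (log2), up and down in equal numbers, and 12213 genes passed the filter. There edgeR recovered 169 with 7 false calls and DESeq2 152 with 1. The simulated conditions did not differ in their hemoglobin share as the cultures do, so the choice of scaling was not tested by it. Scipy 1.17.1 gave exact permutation tests and matplotlib 3.10.9 the plots.

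The members and the 11 other lists were chosen with earlier results of these data known. Values in every culture are given for Hspa1a, Hspa1b, Hsf1, the most abundant gene of each family by mean FPKM and each called gene with a log2 fold change of 0.3 or more in size, and the others by log2 fold change, counts or ranges. Of each further list up to 3 genes with the lowest p-values were named. Promoter sequences were shown for genes with 3 alternating units, and others are said to have been chosen later.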

Additional observations from a re-analysis of the deposited data

How the results depend on the processing

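The chaperone calls depended mainly on how the libraries were scaled. Of the 26 genes called lower with TMM, 26 were called lower with relative log expression factors, 25 without a low count filter, 22 with DESeq2, 21 at an adjusted p under 0.01, 10 with library totals without hemoglobin genes and 4 with library totals only. With 1 culture left out the count was 23 to 25, and 20 of the 26 were called in every such fit. Genes called higher numbered 0 with TMM and with 1 culture left out. They numbered 10 with totals without hemoglobin genes (46.5% of all tested genes) and 25 with library totals only (68.7% of all tested genes). A change of scaling shifts the chaperones and all other genes together, and which scaling is right was not tested. With 3 cultures a condition, genes with few reads such as Hspa1a and Hspa1b are measured least precisely.

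By family, the count of genes called lower with TMM, with totals without hemoglobin genes and with library totals only was 5, 1 and 0 for HSP70 and HSP110, 3, 1 and 0 for mitochondrial genes, 6, 2 and 1 for co-chaperones, and 6, 1 and 0 for CCT. With library totals only it was 0 for cytosolic HSP90 and 3 for HSP40. For HSP70 and HSP110 it was 3 with DESeq2 and 2 at an adjusted p under 0.01. Of all tested genes 18.9% were called lower with TMM and 15.3% with DESeq2. Calls in either direction with library totals only, with totals without hemoglobin genes, with DESeq2 and at an adjusted p under 0.01 were 19, 12, 3 and 3 for other HSP70 and J-domain partners. They were 10 with library totals only for other HSP90 partners, 10 and 7 with both totals for other mitochondrial genes, and 9 with library totals only, 2 with DESeq2 and 2 at 0.01 for prefoldin and tubulin folding genes, where leaving out 1 culture gave 3 to 5. Of all tested genes 68.7% were called higher and 5.34% lower with library totals only, and 46.5% and 8.58% with totals without hemoglobin genes. With DESeq2 1276 of 12306 genes were called higher and 1877 lower. The difference in the chaperones' share of counts turned from 0.047 to -0.028 percentage points once hemoglobin genes were left out of the total.

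These log2 fold changes, below 0 with TMM, were above 0 with library totals only and, where a second value follows, with totals without hemoglobin genes: Hspa4 0.16 and 0.040, Hspa8 0.14 and 0.026, Hspa13 0.14 and 0.021, Hspa14 0.18 and 0.062, Hsp90ab1 0.20 and 0.083, Dnaja1 0.13 and 0.012, Dnaja2 0.25 and 0.13, Dnajb1 0.25 and 0.14, Hspa9 0.14 and 0.018, Trap1 0.24 and 0.12, Stip1 0.14 and 0.025, Fkbp4 0.25 and 0.13, Chordc1 0.16 and 0.040, Cct2 0.18 and 0.060, Cct4 0.22 and 0.10, Cct5 0.12 and 0.0054. With library totals only the others were Hspa4l 0.11, Hspe1 0.12, Bag1 0.099, Bag2 0.032, Ahsa1 0.0070, Tcp1 0.066, Cct3 0.044, Cct6a 0.071 and Cct8 0.086. Leaving out 1 culture spanned 0 for 4 genes not called, Dnajb1 (-0.029 to 0.0051), Trap1 (-0.048 to 0.0039), Cdc37 (-0.012 to 0.025) and Fkbp4 (-0.050 to 0.0025).

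With a replicate block on the culture number, 27 chaperone genes were called lower, the 26 and Cct2. Whether the numbers pair the cultures was not settled. Deviations from the condition means correlated at -0.0088 to 0.099 between cultures of the same number and at -0.11 to 0.023 between others. DMSO cultures 1 and 3 correlated best with the NUP-17d culture of their own number (0.099 and 0.096). DMSO culture 2 correlated best with NUP-17d culture 3 (0.023).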

Other observations

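Ratios of a pair of chaperones within a culture do not depend on how the library is scaled. The 5 pairs below were formed after the values had been seen, so they are a description of these cultures. Hsp90aa1 over Hsp90ab1 was 0.537 ± 0.0056 in DMSO and 0.458 ± 0.0039 in NUP-17d (SD, n = 3), and the cultures of the conditions did not overlap. Within the HSP40 family, Dnajb4 over Dnajb1 was 5.12 ± 0.22 and 2.71 ± 0.045, and Dnajb2 over Dnajb1 was 5.83 ± 0.30 and 3.92 ± 0.085. Within the CCT ring, Cct7 over Cct4 was 1.79 ± 0.019 and 1.49 ± 0.044. Bag3 over Bag1 was 1.01 ± 0.026 and 0.856 ± 0.054. Each of the 5 ratios was lower in all 3 NUP-17d cultures than in any DMSO culture. Each thus had an exact 2-sided permutation p = 0.1, the smallest that 3 against 3 allows. Because the pairs were formed from values already seen, this p is no test of the ratios. Counts of Dnajb1 and Dnajb4 include reads shared with other genes.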
